A study of Rattus norvegicus with 12 samples.

Results

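Genes of sterol and fatty acid synthesis were described in the lungs of rats given DA and of rats given water. The genes were chosen by name, as 30 genes that encode the enzymes of cholesterol synthesis, the sensors and transcription factors that control them, and the enzymes of fatty acid synthesis. Of these, 29 stood among the 23096 genes of the count table, and all 29 passed the filter on low counts that left 14517 genes for testing; the lowest count of any of them in any library was 10. Fdps, which makes farnesyl diphosphate, was not analysed here. The 18 genes of the sterol branch were split into the mevalonate steps (7 genes) and the steps that convert farnesyl diphosphate by way of squalene to cholesterol (11 genes), and beside them stood 6 regulators and 5 genes of the fatty acid branch. The set was put together knowing how DA and control libraries differed in this same table, so the differences between the groups are given for these 29 genes as a description, with fold changes and errors and with no test of the set. DA is 2,3-butanedione, also called diacetyl, a butter flavouring whose vapour injures the airways. The DA group held 6 male Sprague Dawley rats that received 125 mg/kg DA into the trachea each day for 7 days, and the control group held 6 such rats that received aseptic distilled water into the trachea. The rats were 8 weeks old and weighed 300 g, and lung with its bronchi was taken 24 h after the last instillation. Each library came from the RNA of whole tissue, so fewer cells of a type and less RNA per cell cannot be told apart in any value below.

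Cholesterol and fatty acids are both built from cytosolic acetyl-CoA, which Acly makes from citrate. The sterol branch joins acetyl-CoA units into mevalonate and isoprenoid diphosphates, couples farnesyl units into squalene, closes the ring and trims it to cholesterol. Its genes are switched on when membranes of the endoplasmic reticulum hold little sterol: Scap then carries the transcription factors SREBP1 and SREBP2 (genes Srebf1 and Srebf2) to the Golgi, where they are cut and released, while the Insig proteins hold the complex back when sterol is plentiful. SREBP2 is best known for driving the sterol genes, and SREBP1c for driving the fatty acid genes. In the lung, type 2 alveolar cells use both branches to make surfactant lipid.

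The promoters of 6 of these genes are printed first, because the sterol genes are known for short control elements close to the start. RefSeq windows on the rat build GRCr8, from 250 bases before to 50 bases after the start, were at hand for 23 of the 30 named genes, Fdps included; Sqle, Stard4, Elovl6, Fdft1, Acaca, Fasn and Pmvk had none. The sequences are the 250 bases before the start, written in the direction of transcription, with capitals for every CCAAT box (the letters CCAAT on either strand, so ATTGG as printed where it lies on the other). They show 3 of the genes with the largest increases in DA libraries (Idi1, Hmgcs1 and Dhcr7), a later sterol gene (Msmo1), the SREBP-induced regulator Insig1, and Lpin1, which was lower.
Idi1 (chr17:66547525-66547774, minus strand): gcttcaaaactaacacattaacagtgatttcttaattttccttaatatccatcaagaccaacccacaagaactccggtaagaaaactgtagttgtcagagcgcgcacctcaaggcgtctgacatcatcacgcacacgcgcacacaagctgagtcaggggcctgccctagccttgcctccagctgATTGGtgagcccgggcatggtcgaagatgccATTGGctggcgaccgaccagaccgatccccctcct
Hmgcs1 (chr2:53382054-53382303, plus strand): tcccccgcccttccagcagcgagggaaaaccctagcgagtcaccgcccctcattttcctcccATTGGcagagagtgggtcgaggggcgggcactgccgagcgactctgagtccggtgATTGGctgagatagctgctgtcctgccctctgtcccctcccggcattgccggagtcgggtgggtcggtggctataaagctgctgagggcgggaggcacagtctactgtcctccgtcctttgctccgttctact
Dhcr7 (chr1:208444184-208444433, plus strand): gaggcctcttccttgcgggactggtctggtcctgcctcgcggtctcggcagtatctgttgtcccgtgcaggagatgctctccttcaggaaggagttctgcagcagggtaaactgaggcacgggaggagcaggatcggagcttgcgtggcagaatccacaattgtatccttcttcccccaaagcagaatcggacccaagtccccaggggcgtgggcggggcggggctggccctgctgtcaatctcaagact
Msmo1 (chr16:29746863-29747112, plus strand): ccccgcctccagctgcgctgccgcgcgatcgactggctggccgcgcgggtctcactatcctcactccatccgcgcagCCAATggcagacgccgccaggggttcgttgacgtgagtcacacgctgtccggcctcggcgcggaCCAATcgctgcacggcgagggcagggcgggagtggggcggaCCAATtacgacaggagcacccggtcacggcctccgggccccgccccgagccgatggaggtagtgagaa
Insig1 (chr4:8057770-8058019, minus strand): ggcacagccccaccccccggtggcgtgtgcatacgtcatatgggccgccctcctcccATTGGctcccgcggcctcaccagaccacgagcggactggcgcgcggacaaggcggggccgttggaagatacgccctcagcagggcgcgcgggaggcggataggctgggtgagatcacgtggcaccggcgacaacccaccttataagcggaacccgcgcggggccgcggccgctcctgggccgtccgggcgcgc
Lpin1 (chr6:45108943-45109192, minus strand): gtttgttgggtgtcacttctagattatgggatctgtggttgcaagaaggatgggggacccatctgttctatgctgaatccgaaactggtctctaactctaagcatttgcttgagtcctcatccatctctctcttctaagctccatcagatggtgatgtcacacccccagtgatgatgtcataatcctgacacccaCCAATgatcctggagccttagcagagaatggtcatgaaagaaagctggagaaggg

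A CCAAT box, the site bound by the factor NF-Y, was present in 19 of the 23 windows (82.6%), counting both strands over the whole window. The same letters were found in 37.7% of all 27457 rat promoter windows and in 37.5% of the 10745 windows of tested genes. Such letters stood in 13 of 16 windows of the sterol branch and 4 of 5 of the regulators, and both fatty acid branch windows, one of them that of the lower gene Lpin1, held it; Dhcr7, printed above, had none. The GC box, GGGCGG on either strand, was present in 18 of 23 windows (78.3%), against 34.9% of all windows and 60.4% of those of tested genes. The E-box CACGTG, which reads the same on both strands, was found in 3 of 23 windows (13.0%), those of Insig1, Sc5d and Scap, against 6.65% of all windows and 9.09% of those of tested genes. The core of a sterol regulatory element, TCACNCCAC on either strand, was found in 0 of 23 windows, against 1.13% of all windows; no match says only that these letters are not in these windows. No matches of different motifs shared bases in the windows of these genes. A match is a description of the letters and was not tested as a site of binding.

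The libraries held 13723207 to 16271842 counts, with 16579 to 17354 genes detected, and expressed genes that mark lung, such as Sftpc, Scgb1a1 and Ager. All rats were labelled male, but reads of Y-linked genes were plentiful in 6 libraries (DA replicates 1 to 4, with 2189 to 2821 counts, and control replicates 1 and 2, with 2323 to 2884) and nearly missing in the other 6 (DA replicates 5 and 6, with 3 to 8, and control replicates 3 to 6, with 1 to 9). A score of circadian clock genes, the mean log2 CPM of day-phase genes minus that of night-phase genes, ran from 0.20 to 1.23 in DA libraries and lay at 2.15 and 2.98 in control replicates 1 and 2, against -1.50 to 0.24 in control replicates 3 to 6. DA replicate 4 had low alveolar markers: the summed level of 10 alveolar type 2 markers was 17364 CPM there, against 35730 to 48389 CPM in the other DA libraries and 39481 to 45325 CPM in control libraries. Control replicate 6 had the highest summed level of 13 adipocyte markers, 490.3 CPM, against 85.1 to 127 CPM in DA libraries and 86.1 to 302 CPM in the other control libraries.

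DA libraries had higher levels of most of the 18 sterol branch genes, while 4 of the 5 fatty acid branch genes had a negative log2 fold change. Across all 29 genes, 12 were called higher and 1 lower in DA libraries by edgeR's quasi-likelihood test (adjusted p under 0.05 over all tested genes), against a background of 8.45% of tested genes called higher and 7.51% called lower (16.0% in either direction). DESeq2 called 24.3% of tested genes, and 33.6% had an unadjusted edgeR p under 0.05, the shares against which such counts below are to be read. All 12 genes called higher were among the 18 of the sterol branch, the 1 called lower (Lpin1) was in the fatty acid branch, and 0 of the 6 regulators were called (1 by DESeq2, Insig1). The median log2 fold change was 0.99 for the sterol branch, -0.08 for the regulators and -0.24 for the fatty acid branch, beside 0.03 for all tested genes. In 10 of the 29 genes every DA library lay above every control library, and in 2 (Ggps1 and Lpin1) every DA library lay below, against 3.11% and 2.93% of tested genes (6.04% in either direction). Since the genes were chosen from this contrast, these counts are not evidence about it. In the next paragraphs a level is in CPM, the reads of a gene per fixed total of reads, scaled by the trimmed mean of M-values, and lowest, median and highest values of the 6 libraries are given.

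**Figure D1:**
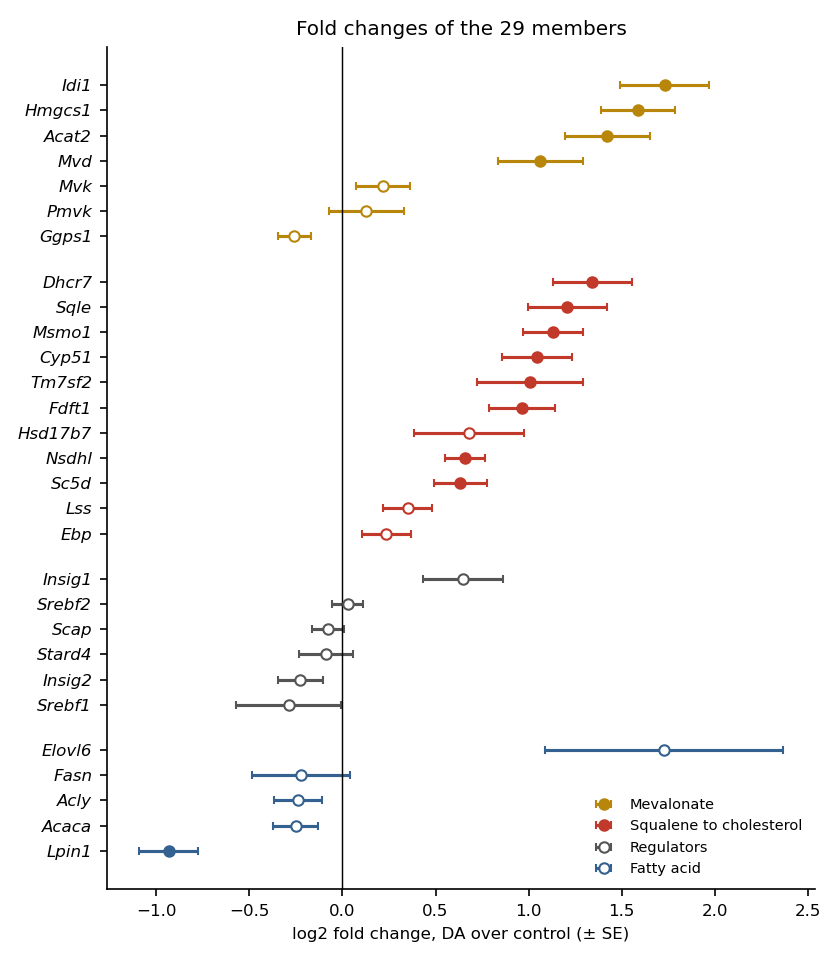
Log2 fold change of DA over control for the 29 genes, with standard error bars, grouped by branch in colour, with filled points for genes called by edgeR and open points for the rest. Idi1 (1.73), Hmgcs1 (1.59) and Acat2 (1.42) stand highest with the variable Elovl6 (1.73), and Lpin1 (-0.93) stands lowest.

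Among the mevalonate steps the largest differences were in Idi1, Hmgcs1 and Acat2. Idi1 (ENSRNOG00000016690), which isomerizes isopentenyl diphosphate, had 41.2, 58.9 and 94.5 CPM in DA libraries, against 10.5, 19.7 and 25.6 CPM in control libraries. All DA libraries stood above all control libraries, with replicate 6 the highest in DA, and the log2 fold change was 1.73 ± 0.24 (approximate SE derived from the F statistic of the test, n = 6 each). Hmgcs1 (ENSRNOG00000016552), which condenses acetyl-CoA with acetoacetyl-CoA, had 107, 138 and 213 CPM in DA libraries, against 39.9, 45.1 and 79.0 CPM in control libraries. The groups did not overlap, although control replicate 2 lay well above the other controls, and the log2 fold change was 1.59 ± 0.20. Acat2 (ENSRNOG00000019189), the cytosolic thiolase that makes acetoacetyl-CoA, had 23.2, 37.3 and 46.7 CPM in DA libraries, against 9.64, 12.2 and 19.0 CPM in control libraries. These did not overlap either, and the log2 fold change was 1.42 ± 0.23. Mvd, which decarboxylates mevalonate diphosphate, had 14.0, 20.0 and 35.7 CPM in DA libraries, against 7.18, 10.7 and 13.3 CPM in control libraries, again without overlap, and its log2 fold change was 1.06 ± 0.23.

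The kinases of this stretch did not share that difference. Mvk, mevalonate kinase, had 17.7, 20.7 and 24.6 CPM in DA libraries and 13.8, 18.3 and 22.8 CPM in control libraries, with a log2 fold change of 0.22 ± 0.14. Pmvk, phosphomevalonate kinase, had 9.89, 15.2 and 23.3 CPM in DA libraries and 9.20, 14.8 and 17.4 CPM in control libraries, with a log2 fold change of 0.13 ± 0.20. The DA and control ranges of both genes overlapped and neither was called. Ggps1, which makes geranylgeranyl diphosphate and so leads isoprenoid units away from cholesterol, ran the other way: it had 20.4, 23.2 and 25.2 CPM in DA libraries, against 25.5, 27.2 and 29.4 CPM in control libraries. Every DA library lay below every control library, but by little, and the log2 fold change of -0.26 ± 0.09 was not called by edgeR. It was the only gene of the sterol branch with a negative log2 fold change.

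In the steps after farnesyl diphosphate 8 of 11 genes were called higher and all 11 had a positive log2 fold change. Dhcr7 (ENSRNOG00000020776), the reductase that makes cholesterol in the last step, had 12.7, 23.4 and 31.5 CPM in DA libraries, against 6.31, 8.83 and 12.3 CPM in control libraries. The groups did not overlap, though their nearest libraries were close, and the log2 fold change was 1.34 ± 0.21. Sqle (ENSRNOG00000009550), the oxygen-dependent squalene epoxidase and a point of control in the pathway, had 59.9, 78.9 and 108 CPM in DA libraries, against 24.4, 32.1 and 56.4 CPM in control libraries, with a log2 fold change of 1.21 ± 0.21. Msmo1 (ENSRNOG00000032297), a sterol methyl oxidase, had 63.2, 73.7 and 113 CPM in DA libraries, against 26.6, 35.4 and 49.9 CPM in control libraries, with a log2 fold change of 1.13 ± 0.16. Neither Sqle nor Msmo1 overlapped between the groups.

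Cyp51, the lanosterol demethylase, had 81.3, 133 and 147 CPM in DA libraries, against 39.9, 64.8 and 70.2 CPM in control libraries, and Fdft1, squalene synthase, had 92.4, 98.2 and 122 CPM in DA libraries, against 39.4, 46.8 and 87.8 CPM in control libraries. Both were higher in every DA library than in any control library, with log2 fold changes of 1.05 ± 0.19 for Cyp51 and 0.97 ± 0.18 for Fdft1. Nsdhl, which takes part in removing the sterol's methyl groups, did not overlap either, at 28.8, 34.7 and 43.6 CPM in DA libraries, against 20.0, 22.1 and 24.9 CPM in control libraries (log2 fold change 0.66 ± 0.11). Sc5d, a sterol desaturase, was called higher with overlapping ranges, at 21.7, 36.5 and 38.2 CPM in DA libraries, against 17.8, 21.7 and 24.5 CPM in control libraries (log2 fold change 0.63 ± 0.14).

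Tm7sf2, a sterol reductase whose step is shared with Lbr, was also called higher with overlap, at 3.51, 7.28 and 11.2 CPM in DA libraries, against 2.45, 3.50 and 4.94 CPM in control libraries. Its log2 fold change was 1.01 ± 0.28, and it was the only called gene of the set that lost its call when a single library was left out, being called in 5 of the 12 such fits. The call ended without control replicates 3, 4, 5 or 6 or DA replicates 1, 3 or 6, where the log2 fold change was 0.84 to 1.03. The remaining steps were not called. Hsd17b7, a ketosteroid reductase, was scarce, at 1.10, 2.67 and 3.60 CPM in DA libraries and 0.860, 1.70 and 2.16 CPM in control libraries, with a log2 fold change of 0.68 ± 0.30. Lss, which closes the ring to lanosterol, had a log2 fold change of 0.35 ± 0.13 and Ebp, the sterol isomerase, one of 0.24 ± 0.13, both with overlapping ranges.

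**Figure D2:**
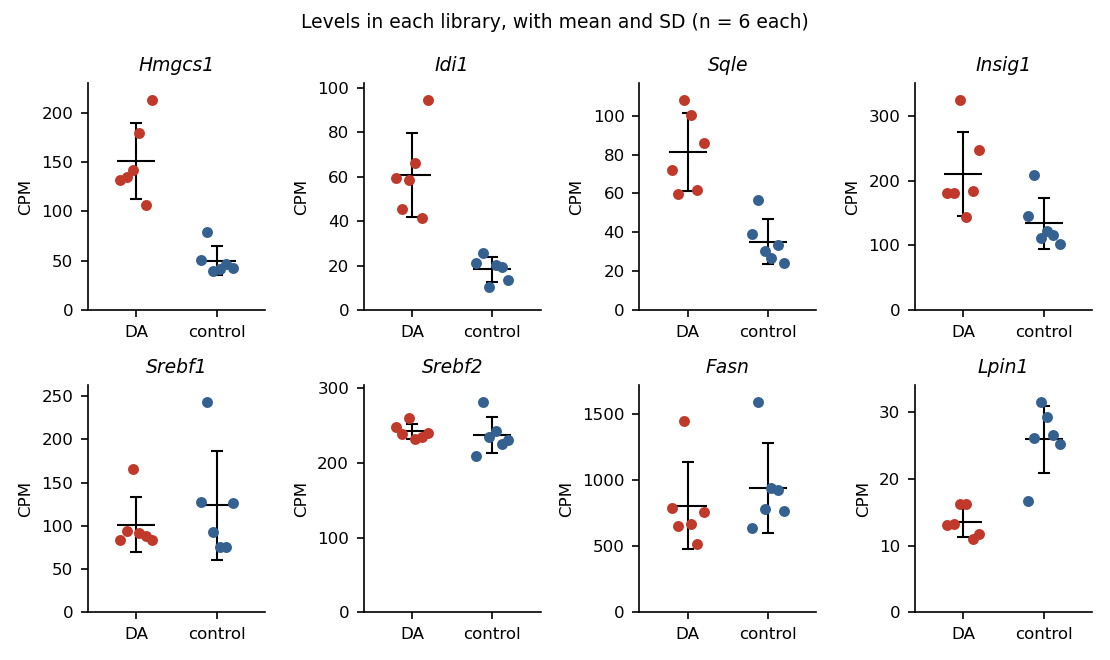
Level in CPM (linear axes from 0) of Hmgcs1, Idi1, Sqle, Insig1, Srebf1, Srebf2, Fasn and Lpin1 in each of the 6 DA and 6 control libraries, with the group mean and SD. Hmgcs1, Idi1 and Sqle are higher in every DA library than in any control library, Lpin1 is lower in every DA library, and Insig1, Srebf1, Srebf2 and Fasn overlap.

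The regulators showed no shared difference. Srebf2 (ENSRNOG00000007400), the transcription factor gene of the sterol branch, had 232, 239 and 260 CPM in DA libraries and 209, 232 and 281 CPM in control libraries, the smallest relative spread of the set in DA libraries (coefficient of variation 4.32%). Its log2 fold change was 0.03 ± 0.08. Scap, the escort protein, likewise differed little, at 71.1, 83.7 and 94.1 CPM in DA libraries and 79.4, 86.0 and 99.9 CPM in control libraries (log2 fold change -0.08 ± 0.09). Messenger levels of these genes do not measure how much of the factor is cut and active.

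Insig1 (ENSRNOG00000006859), which retains Scap and is itself switched on by SREBPs, had 144, 183 and 325 CPM in DA libraries and 102, 119 and 209 CPM in control libraries. The ranges overlapped, 2 of the 6 DA libraries lying above all controls. The log2 fold change of 0.65 ± 0.21 was not called by edgeR over all libraries, but Insig1 was called in 6 of 21 alternatives. These included DESeq2, upper quartile scaling, a clock term and the libraries without Y-linked reads (log2 fold change 0.93). The other 2 left out control replicate 2 or DA replicate 4 (log2 fold change 0.82 and 0.73). Insig2 (ENSRNOG00000002478), a paralog known from mouse liver not to depend on SREBPs, had 10.6, 14.4 and 16.2 CPM in DA libraries and 15.1, 16.6 and 18.1 CPM in control libraries (log2 fold change -0.23 ± 0.12, not called). Srebf1 (ENSRNOG00000003463) had 83.8, 89.9 and 166 CPM in DA libraries and 75.9, 110 and 243 CPM in control libraries, with DA replicate 3 and control replicate 2 far above the rest. Its log2 fold change was -0.29 ± 0.28, and 0.022 without control replicate 2. Stard4, a cytosolic sterol carrier, had a log2 fold change of -0.09 ± 0.14.

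Of the 5 fatty acid branch genes only Lpin1 was called by edgeR. Fasn (ENSRNOG00000045636), fatty acid synthase and the most abundant of the set in CPM, had 515, 715 and 1450 CPM in DA libraries and 638, 853 and 1592 CPM in control libraries. The ranges overlapped almost fully, DA replicate 3 and control replicate 2 were highest as for Srebf1, and the log2 fold change was -0.22 ± 0.26. Acly had 230, 284 and 350 CPM in DA libraries and 293, 304 and 433 CPM in control libraries (log2 fold change -0.24 ± 0.13). Acaca (ENSRNOG00000034013), acetyl-CoA carboxylase, which commits carbon to fatty acids, had 86.5, 111 and 138 CPM in DA libraries and 115, 127 and 165 CPM in control libraries (log2 fold change -0.25 ± 0.12). Neither was called, and both had overlapping ranges.

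Lpin1 and Elovl6 stood apart from these 3 in opposite directions. Lpin1 (ENSRNOG00000004377), a phosphatidate phosphatase that makes diacylglycerol for glycerolipids and is also a nuclear coactivator, had 11.0, 13.1 and 16.3 CPM in DA libraries, against 16.7, 26.4 and 31.5 CPM in control libraries. Every DA library lay below every control library, and the log2 fold change was -0.93 ± 0.16. Elovl6 (ENSRNOG00000048949), an elongase of saturated fatty acids, had 0.645, 3.39 and 20.1 CPM in DA libraries and 1.06, 1.61 and 3.08 CPM in control libraries. Its log2 fold change of 1.73 ± 0.64 was the equal of that of Idi1 in size but was not called by edgeR (DESeq2 called it). The coefficient of variation in DA libraries was 126%, and the log2 fold change was 0.70 without DA replicate 4, the library with low alveolar markers.

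**Figure D3:**
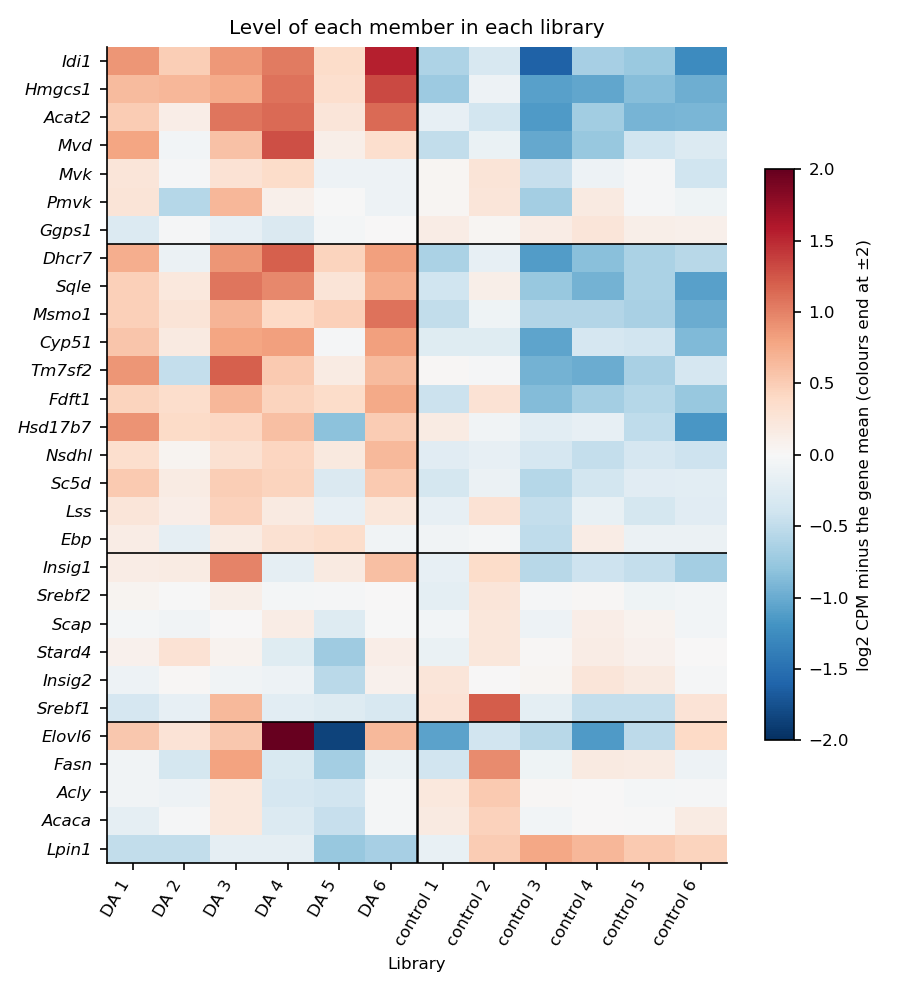
Level of each of the 29 genes in each library, as log2 CPM minus the gene's mean over the 12 libraries, with DA libraries left of control libraries, genes in order of branch, red above and blue below the mean, and colours that end at 2 in either direction. Most sterol genes are above their mean in DA libraries, least in DA replicates 2 and 5, and Ggps1 and Lpin1 run the other way.

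The branches were next set side by side within each library, as the mean over genes of centred log2 CPM. The sterol branch stood at 0.48, 0.09, 0.61, 0.61, 0.11 and 0.60 in DA replicates 1 to 6, against -0.26, -0.03, -0.73, -0.45, -0.44 and -0.58 in control replicates 1 to 6. All DA libraries were above all control libraries, the lowest being DA replicates 2 and 5 and the nearest control being replicate 2. The fatty acid branch stood at -0.06, -0.15, 0.31, 0.38, -0.79 and -0.05 in DA replicates 1 to 6 and at -0.23, 0.41, 0.02, -0.04, 0.03 and 0.17 in control replicates 1 to 6, so that the groups overlapped. The sterol branch minus the fatty acid branch was therefore 0.22 to 0.90 in DA libraries, against -0.75 to -0.03 in control libraries. The medians of the branches' log2 fold changes differed by 1.22 and their means by 0.82, a description of genes chosen from this contrast.

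Every DA library lay above every control library in the sterol branch. The same order therefore had to hold among libraries with and without Y-linked reads, and the ranges below are no check of it. With such reads, the sterol branch stood at 0.09 to 0.61 in the 4 DA libraries, against -0.26 to -0.03 in the 2 control libraries. Without them, it stood at 0.11 to 0.60 in the 2 DA libraries, against -0.73 to -0.44 in the 4 control libraries. Taking only the 6 libraries that hold such reads, edgeR called 0 of 14517 genes (0.00% higher, 1388 genes at an unadjusted p under 0.05), so that 0 of the 29 were called, and the median of the sterol branch was 0.65. Among those without, 10 of the 29 were called higher, against 4.89% of tested genes, and 1 lower. The genes called higher there included Insig1, but not Mvd, Sc5d or Tm7sf2, which were called over all libraries. Each of the 13 genes called over all libraries had the same sign in both subsets. That had to be so where the groups do not overlap, which leaves out only Sc5d and Tm7sf2.

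**Figure D4:**
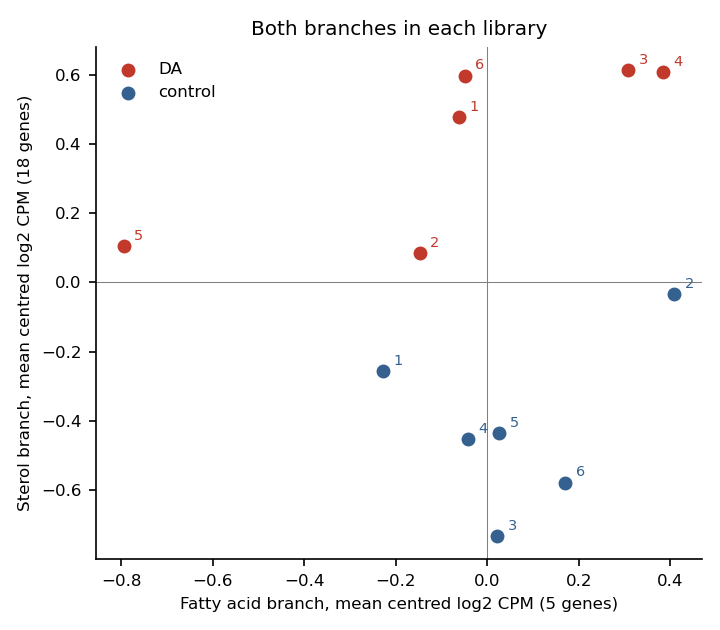
Mean centred log2 CPM of the sterol branch (18 genes, vertical axis) against that of the fatty acid branch (5 genes, horizontal axis), with a point for each library numbered by replicate, red for DA and blue for control. On the vertical axis the groups separate (0.09 to 0.61 in DA, -0.73 to -0.03 in control), and on the horizontal axis they overlap (-0.79 to 0.38 in DA, -0.23 to 0.41 in control).

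Markers of other cells also differed between the groups, and their part in the sterol values was not tested. Of 18 cell cycle genes 13 were called higher, and their summed level was 371 to 1806 CPM in DA libraries, against 210.1 to 387 CPM in control libraries. Among them Aurkb had a log2 fold change of 2.31 ± 0.60 and Cdk1 one of 2.23 ± 0.53. With a term for Y-linked reads only Tyms (edgeR adjusted p = 0.0464) and Tk1 (0.0325) of these 13 stayed called. In the libraries without such reads only Tk1 did (0.0208). Of 7 airway secretory genes tested 3 were called higher, and the 8 listed summed to 3862 to 14061 CPM in DA libraries, against 2541 to 6642 CPM in control libraries. The mucin gene Muc5b had a log2 fold change of 4.94 ± 1.25 and Agr2, which helps fold mucins, one of 3.98 ± 0.80. Within the 6 libraries without Y-linked reads edgeR called neither Aurkb (adjusted p = 0.219), Cdk1 (0.153), Muc5b (0.718), Agr2 (0.0808) nor the macrophage gene Siglec5 (0.0828), and leaving out a library ended the call of Aurkb (control replicates 3, 4 or 6; at most 0.0528) and of Muc5b (control replicate 4; 0.0513). Of 9 macrophage genes tested 3 were called lower, and the list summed to 773 to 1387 CPM in DA libraries, against 1126 to 2152 CPM in control libraries. The log2 fold changes were -1.45 ± 0.32 for Siglec5 and -0.85 ± 0.23 for Mrc1. Mrc1 was not called without control replicates 4, 5 or 6 or DA replicate 1 (edgeR adjusted p of at most 0.0615). A term for Y-linked reads ended the calls of Muc5b (edgeR adjusted p = 0.265) and Mrc1 (0.0582). A replicate block ended those of Muc5b (edgeR adjusted p = 0.139), Aurkb (0.0629), Agr2 (0.0602) and Mrc1 (0.0526). Muc5b was not called by limma either. Of 10 alveolar type 2 genes tested 0 were called by edgeR, 2 by DESeq2 (lower) and 3 at an unadjusted p under 0.05, with a list median of -0.15 and log2 fold changes of -0.06 for Sftpc and -0.04 for Lyz2. Of 7 alveolar type 1 genes tested 0 were called by edgeR, by DESeq2 or at an unadjusted p under 0.05, with a list median of 0.05 (4 positive and 3 negative) and log2 fold changes of -0.31 for Hopx and -0.11 for Clic5, the most abundant of them. Of 7 adipocyte genes tested 0 were called by edgeR, 2 by DESeq2 (lower) and 5 at an unadjusted p under 0.05. The log2 fold changes were -2.24 ± 0.81 for Fabp4 and -0.99 ± 0.41 for Cfd. Fabp4 had 3.13 to 13.9 CPM in control replicates 1 to 3 and 112 to 132 CPM in control replicates 4 to 6. In DA libraries it had 2.11 to 21.0 CPM, and its log2 fold change ran from -2.77 to 0.95 over the alternatives. DA replicates 2 and 5, the lowest DA libraries for the sterol branch, were also lowest in the cell cycle score, the mean centred log2 CPM of the list (-0.12 and -0.23), and in the airway secretory score (-0.43 and -0.77). DA replicates 3 and 4, equal in the sterol branch, had cell cycle scores of 0.08 and 2.06 and airway secretory scores of 2.85 and 1.15. These 2 scores were 1.48 and 1.10 in replicate 1 and 0.76 and 1.11 in replicate 6. In replicate 6 Idi1, Hmgcs1, Fdft1, Cyp51, Msmo1, Nsdhl and Sc5d were at their highest. The only steroidogenic marker that passed the filter, Star, had a log2 fold change of 0.27 ± 0.37 and was not called. Liver markers summed to at most 1.66 CPM in DA libraries and 4.37 CPM in control libraries.

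Per unit of gene length, in the authors' FPKM (based on the deposited gene length), the highest levels of the set in DA libraries were those of Insig1, Srebf2, Msmo1, Fasn and Cyp51, in that order, and in control libraries those of Insig1, Fasn and Srebf2. Insig1 averaged 78.8 FPKM in DA libraries and 50.4 FPKM in control libraries, and Srebf2 averaged 48.5 FPKM in DA libraries and 47.2 FPKM in control libraries. Msmo1 averaged 46.7 FPKM in DA libraries and 21.3 FPKM in control libraries, so that it lay above Fasn in DA libraries (42.0 FPKM) but below it in control libraries (49.0 FPKM). The order of genes depends on the deposited length, which was 1709 bases for Msmo1 and 19204 for Fasn. In CPM, Msmo1 averaged 79.9 and Fasn 806 in DA libraries. Cyp51 averaged 39.4 FPKM in DA libraries and 18.9 FPKM in control libraries. The 2 genes with the largest called increases were of middling level in FPKM: Hmgcs1 averaged 15.0 FPKM in DA libraries and 4.97 FPKM in control libraries, and Idi1 averaged 11.4 FPKM in DA libraries and 3.42 FPKM in control libraries. Hsd17b7 was among the lowest, at 0.788 FPKM in DA libraries and 0.486 FPKM in control libraries.

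Genes of the same pathways outside the set were then examined with the full test, over all tested genes. The 13 other sterol and isoprenoid synthesis genes tested had a median log2 fold change of 0.20. Among them Erg28, a scaffold of the demethylation steps, was higher in every DA library than in any control library, with 37.1, 56.8 and 65.7 CPM in DA libraries, against 26.3, 34.6 and 36.2 CPM in control libraries (log2 fold change 0.69 ± 0.15, edgeR adjusted p = 0.0123).

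The 16 genes of cholesterol uptake and transport had a median log2 fold change of 0.00. Lrp1, a large endocytic receptor, was lower in every DA library than in any control library, averaging 524 ± 83.2 CPM in DA libraries and 1132 ± 259 CPM in control libraries (SD, n = 6 each; log2 fold change -1.11 ± 0.17, edgeR adjusted p = 0.00328). Of 13 genes that sense or degrade the sterol machinery, Erlin2 was called higher (log2 fold change 0.33) and the ubiquitin ligase genes Marchf6 and Rnf145 lower (log2 fold change -0.45 each). Of these 3, Erlin2 was called in 2 of the 12 fits that leave out a library (highest edgeR adjusted p = 0.101), Marchf6 in 8 (0.0625; lost without control replicates 3, 4 or 5 or DA replicate 1) and Rnf145 in 10 (0.0597; lost without control replicate 2 or DA replicate 1).

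Among 17 genes of sterol efflux and of the oxysterol receptor LXR, 0 were called higher and 5 lower by edgeR, and 0 and 7 by DESeq2 (median log2 fold change -0.26; at an unadjusted p under 0.05, 4 higher and 9 lower). All 5 were lower in every DA library than in any control library. Abca1, which exports cholesterol, averaged 100.3 ± 21.4 CPM in DA libraries and 215 ± 68.1 CPM in control libraries (log2 fold change -1.10 ± 0.20, edgeR adjusted p = 0.00572). Mylip, an LXR-induced ubiquitin ligase, averaged 55.8 ± 10.5 CPM in DA libraries and 121 ± 34.0 CPM in control libraries (log2 fold change -1.12 ± 0.18, edgeR adjusted p = 0.00433). Apoe, an apolipoprotein that macrophages make, had 76.7, 194 and 564 CPM in DA libraries, against 571, 784 and 1301 CPM in control libraries (log2 fold change -1.72 ± 0.39, edgeR adjusted p = 0.0150). The other two were Pltp, a phospholipid transfer protein (log2 fold change -1.03), and Rxra, the receptor that pairs with LXR (log2 fold change -0.80). Of the 9 macrophage genes tested 8 also had a negative log2 fold change. Within the DA group, the macrophage sum was 1074.5, 965, 1038, 773, 1308 and 1387 CPM in replicates 1 to 6. Apoe had 184, 164, 204, 564, 277 and 76.7 CPM in the same libraries. The part of macrophages in these values was not tested.

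Beyond Fasn and its neighbours, 4 of 23 other fatty acid synthesis and desaturation genes were called higher and 2 lower (median log2 fold change 0.21). Hsd17b12, a reductase of long chain elongation, was higher in every DA library, averaging 65.9 ± 8.51 CPM in DA libraries and 37.7 ± 4.43 CPM in control libraries (log2 fold change 0.80 ± 0.11, edgeR adjusted p = 0.00292). Me1, malic enzyme and a source of NADPH, averaged 52.1 ± 16.1 CPM in DA libraries and 31.3 ± 4.42 CPM in control libraries (log2 fold change 0.74 ± 0.18, edgeR adjusted p = 0.0207). Fads1, a desaturase, and Tecr, an elongation reductase, were the others called higher, with log2 fold changes of 0.65 and 0.39. Mlxip, a glucose-responsive factor, and Pgd, of the pentose phosphate pathway, were called lower, with log2 fold changes of -0.49 and -0.39. Me1 lost its call without control replicate 4 (edgeR adjusted p = 0.0501), and Fads1, Tecr and Pgd were called in 4, 5 and 6 of the 12 fits that leave out a library. Scd, stearoyl-CoA desaturase and a standard SREBP1 target, varied widely, from 229.8 to 1960 CPM in DA libraries and from 173 to 1402 CPM in control libraries, and was not called (log2 fold change 0.28 ± 0.65, edgeR adjusted p = 0.802).

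Of 19 glycerolipid synthesis genes, which include other steps near that of Lpin1, 1 was called higher and 2 lower, 15.8% of them, near the 16.0% of all tested genes. Pcyt1b, an enzyme of phosphatidylcholine synthesis, averaged 3.34 ± 1.00 CPM in DA libraries and 1.21 ± 0.47 CPM in control libraries (log2 fold change 1.46 ± 0.32, edgeR adjusted p = 0.0125). Cds2, which draws phosphatidate toward phosphatidylinositol, and Dgat2, which makes triacylglycerol, were lower, with log2 fold changes of -0.85 ± 0.22 and -0.70 ± 0.19. Of 22 genes of fatty acid oxidation and its PPAR control 0 were called higher and 3 lower by edgeR, with 0 and 6 by DESeq2 and 0 and 7 at an unadjusted p under 0.05. The share called by edgeR, 13.6%, was below that of all tested genes. The 3 were Pdk4, a kinase that restrains glucose oxidation (log2 fold change -2.18 ± 0.53), the lipoprotein lipase gene Lpl (-0.78 ± 0.21) and the acyl-CoA dehydrogenase gene Acadm (-0.42). Of the 12 fits that leave out a library, Dgat2 and Lpl were called in 7 (both lost without any of control replicates 3 to 6 or DA replicate 1), Cds2 in 10 (lost without control replicate 3 or DA replicate 1) and Acadm in 11 (lost without control replicate 3), with edgeR adjusted p of at most 0.0618. Pdk4 was called in all 12, but not with a replicate block (edgeR adjusted p = 0.0501) or a term for Y-linked reads (0.0847), and its log2 fold change was -0.31 in the libraries with such reads. That term also ended the calls of Lpl (0.0617), Dgat2 (0.0678), Acadm (0.0592), Fads1 (0.0774), Tecr (0.0624), Pgd (0.0774), Marchf6 (0.0787) and Erlin2 (0.0987), and the block those of Marchf6, Erlin2, Fads1, Me1, Tecr and Pgd. None of the genes named in these paragraphs on other pathway members kept its call in the libraries that hold Y-linked reads, in which no gene of the table was called. In the 6 libraries without such reads Abca1 (edgeR adjusted p = 0.105), Pcyt1b (0.156), Rnf145 (0.0709), Me1 (0.0552) and Erlin2 (0.331) were not called either.

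**Figure D5:**
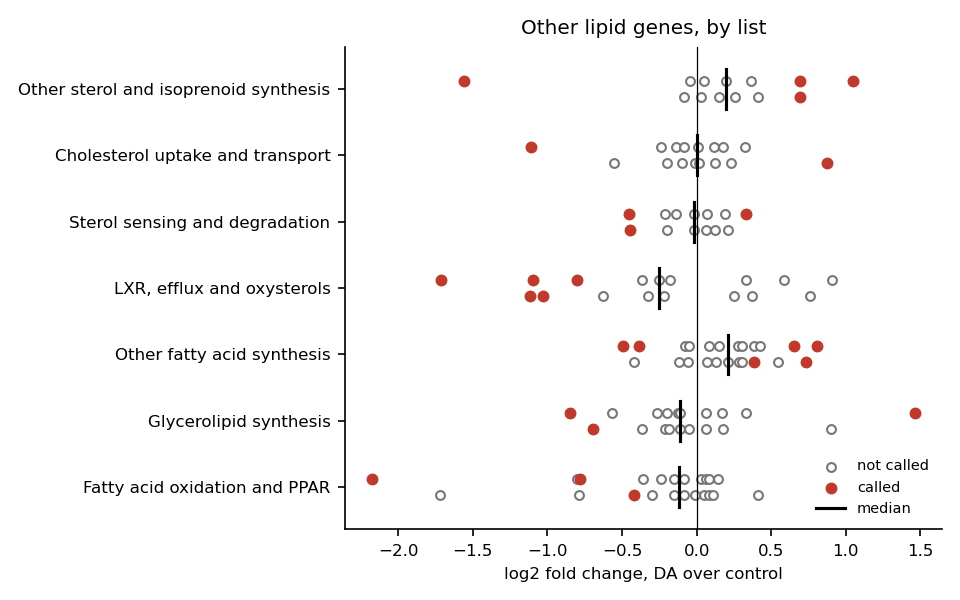
Log2 fold change of DA over control for each tested gene of 7 lists of lipid genes outside the set, with filled points for genes called by edgeR, open points for the rest and a bar at each list's median. Other sterol synthesis genes have a median of 0.20, and all 5 called genes of the LXR, efflux and oxysterol list (median -0.26) lie left of 0.

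Some of these reads could belong to other genes. In RefSeq, 9 of the 30 named genes overlap another gene, among them Idi1 with Wdr37 (log2 fold change -0.08) and Srebf1 with Rai1 (log2 fold change -0.33), and lncRNAs lie over Acat2, Hmgcs1, Fdft1, Insig1 and Acaca. The strand setting of the counting is not given in the sources used here, so reads of such pairs cannot be told apart. Acat2 and Ebp have relatives in the table, Acat2l1 and Ebpl, that could share reads with them.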

How the data were processed

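RNA from lung with bronchi was measured in 12 libraries, 6 per group, each taken as a separate rat. Per the submitters' processing notes, HISAT2 2.2.1, HTSeq 2.0.2 and the build mRatBN7.2 were used; strand setting, annotation and filters are not given in the sources used here. The authors deposited raw read counts per gene and FPKM, which equals the count divided by the deposited length and the library total, with a largest relative departure of 7e-14; how that length was measured is not given in the sources used here. Rows without a name (3108 of 23096) stayed in the fit.

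Tests on the counts used edgeR 4.0.16 in R 4.3.3, with filterByExpr, TMM scaling and the two-sided quasi-likelihood F test with group as the only term over all 14517 genes, with Benjamini-Hochberg adjustment and calls at 0.05. The SE of a log2 fold change was taken as its absolute value divided by the square root of the F statistic, an approximation. Dispersion gave a biological coefficient of variation of 31.0%. The code was tested on simulated data. Within-group library pairs differed by more than sampling noise (at least 9.07 chi-square units per degree of freedom). Library scores were means of log2 CPM (prior count 2), centred per gene. A library was taken to hold Y-linked reads at 100 counts or more. Depth limits the precision of low genes, and a count of 0 allows up to 3 counts, for counting error only. Genes and lists were chosen with earlier results of these data known, and all members were accounted for. The rule for the other names took the 2 called genes with the largest change of each list (or, with no call, the 2 of highest level) and Scd by name; some genes that fall under it are not reported here. Erg28, Erlin2, Abca1, Pltp, Rxra, Fads1, Tecr, Mlxip, Pgd, Dgat2 and Acadm were named after their values were seen. DESeq2 1.42.0, upper quartile scaling, no filter, limma 3.58.1 on log2(FPKM + 0.5), a replicate block, terms or subsets for Y-linked reads, a clock term and leaving out each library were alternatives. The labels do not say whether replicate numbers pair the rats.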

Additional observations from a re-analysis of the deposited data

Results flagged for a closer look

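In 10 of 64 groups of 6 libraries tested among the synthesis genes, the highest or lowest library stood apart from the other libraries of its group by Dixon's criterion, which chance alone meets in about 1 in 20 groups. Control replicate 2 accounted for 5 of these: it had 79.0 CPM of Hmgcs1 (others 39.9 to 51.3), 87.8 CPM of Fdft1 (others 39.4 to 53.3), 52.8 CPM of Lss (others 31.2 to 39.1), 243 CPM of Srebf1 (others 75.9 to 128) and 1592 CPM of Fasn (others 638 to 938). DA replicate 3 was the highest DA library for the same lipogenic pair, with 166 CPM of Srebf1 (others 83.8 to 94.4) and 1450 CPM of Fasn (others 515 to 792). Elovl6 stood apart at 20.1 CPM in DA replicate 4 (others 0.645 to 3.67), the library with low alveolar markers, and at 3.08 CPM in control replicate 6 (others 1.06 to 1.78), the library with the highest adipocyte markers. Insig2 was low in DA replicate 5, at 10.6 CPM (others 14.2 to 16.2). The source of these departures was not tested.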

How the results depend on the processing

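Of the 29 genes, 12 were called higher over all libraries. The count was 14 by DESeq2, 13 under upper quartile scaling or with a clock term, 12 with no filter or by limma, 11 with a replicate block or a term for Y-linked reads, 10 in libraries without Y-linked reads and 0 in libraries with such reads, and 11 to 15 when a library was left out. The count called lower was 2 by DESeq2, which added Ggps1, and 0 in libraries with Y-linked reads. The median of the sterol branch was 0.65 in libraries with Y-linked reads and 0.89 to 1.10 when a library was left out. The fatty acid branch turned from a median of -0.24 to 0.017 when the mean was used, by its construction giving weight to Elovl6, and ran from -0.32 to -0.14 when a library was left out. The difference between the branch medians, 1.22, was 1.03 to 1.29 in the other alternatives and 0.82 between the branch means, an alternative chosen after seeing the data. With the replicate block the sterol median was 0.99, the fatty acid median -0.24 and their difference 1.23. The labels give same-numbered libraries nothing else in common, and these correlated at -0.26 to 0.30, with 3 of 6 pairs over 0.1. Whether the numbers pair the rats is not known, so the block is not taken as a paired analysis. Over all genes the calls higher and lower were 677 and 757 with the block, 549 and 572 with a term for Y-linked reads and 1888 and 1645 by DESeq2, against 1226 and 1090. They were 1662 and 853 under upper quartile scaling, 1129 and 950 with a clock term and 961 and 995 by limma. With no filter they were 1054 and 969 of 19262 genes, and in libraries without Y-linked reads 710 and 979. Leaving out a library gave 572 to 1660 genes called higher. Of the 13 called genes, 12 were called whichever library was left out, the exception being Tm7sf2.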
